A study of Mus musculus with 6 samples.

Results

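The Rab GTPases are the small GTP-binding proteins that direct vesicle traffic, and 92 of the 31692 probes in the authors' deposited array table carry a symbol made of Rab, a number and at most a short suffix. These 92 probes read 53 of the 16361 genes named in that table, and each of the 53 genes has a GTP-binding or GTPase term in the annotation of the table. RNA came from spleens of female NOD mice, which become diabetic through autoimmunity, and was hybridised to 1-colour Agilent arrays. The MOTS-c group (3 arrays) came from mice given 0.5 mg/kg/day of MOTS-c, a mitochondrially encoded peptide, into the peritoneum, and the vehicle group (3 arrays) from mice given a scrambled version of that peptide. Treatment began at 6 weeks of age, and the spleens were taken at 18 weeks after a fast of 16 to 18 hours. Whether each array holds a mouse of its own is not stated, so p-values cover only the spread between these arrays.

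A Rab protein is switched on when an exchange factor loads it with GTP and off when a GTPase-activating protein speeds the breakdown of that GTP. In its active form it recruits effectors, such as tethers and motors, to the membrane it marks. Lipid tails added by geranylgeranyl transferase hold it on the membrane, and a GDP dissociation inhibitor takes it off again. Each compartment of the secretory and endocytic routes carries its own Rabs, and in immune cells these routes serve antigen uptake and presentation, receptor recycling and the release of granules.

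No Rab probe passed the test across all probes, and the family as a whole lay close to the rest of the table. In the deposited log2 values, 32 of the 53 genes, each read by its brightest probe, had a higher mean with MOTS-c and 21 a lower one. The median difference, MOTS-c minus vehicle, was 0.074 on the log2 scale, beside 0.062 over all genes of the table, and it was 0.0061 without MOTS-c 1, 0.023 without vehicle 1, 0.18 without MOTS-c 2 and 0.17 without vehicle 3. The median size of the difference was 0.30 for Rab genes and 0.28 for all genes. Among members without overlap at an unadjusted p under 0.05 (limma), the largest differences were those of Rab7b, Rab2b and Rab33b, higher, and Rab4a, Rab8b and Rab6a, lower. None passed the adjusted threshold, and such p values were no more frequent than over all genes (9.4% higher and 5.7% lower, beside 13.3% and 13.0%). Within slide 2 the difference of Rab2b was 0.26 and that of Rab4a -0.16.

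In limma's moderated test with Benjamini-Hochberg adjustment over all 31692 probes, 0 Rab probes and 0% of all probes had an adjusted p under 0.05. The smallest adjusted p of a Rab probe was 0.082. In simulated data this threshold recovered 0 of 100 probes with a true difference of 1. There nearly all probes were unchanged, and 5.3% of the unchanged ones had an unadjusted p under 0.05, fewer than in the data. The recovery in the simulation therefore does not give the power of the test here. With 3 arrays in each group, 0 calls do not show that no Rab gene changed. At an unadjusted p under 0.05, limma called 8 Rab probes higher with MOTS-c, where 12.2% of all probes were called, and 7 lower, where 13.7% were called. The lower count was 3, 2 and 1 without MOTS-c 1, 2 and 3 in turn and 2 without vehicle 1, and the higher count was 5 without MOTS-c 1 and 13 without vehicle 3. Over all probes the lower count fell too, from 4329 to 3230, 3389 and 2885 in the same order and 3262 without vehicle 1. The higher count over all probes went from 3869 to 2578 without MOTS-c 1 and to 4355 without vehicle 3. On 15 Rab probes every MOTS-c value lay above every vehicle value, which holds for 17.7% of all probes, and on 14 every MOTS-c value lay below, which holds for 16.7%. Counted by gene, 5 Rab genes were higher and 3 lower at an unadjusted p under 0.05, beside 13.3% and 13% of all genes. The groups did not overlap for 8 Rab genes higher with MOTS-c and 7 lower, beside 19.4% and 16.3% of all genes, so these shares were near or below the background of the table.

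The oligonucleotides that read the genes singled out below are 60 bases long, and their bases 31 to 60 are printed here to show which stretch of each transcript gave the values. The positions refer to mm9, come from the array design and cover the whole oligonucleotide. The capitals mark AATAAA, the polyadenylation signal found near the end of many transcripts, which was searched on the printed strand. Over their full length 12 of the 92 Rab probes (13.0%) hold it, against 10.97% of all probes in the table. The first 2 probes are those of Rab7b, and the 3 probes of Rab22a close the list because they went opposite ways.
Rab7b, bright probe A_52_P244682 (chr1:133609265-133609324, plus strand): ggctgtaggaatgttgaacctgggctagtt
Rab7b, dim probe A_66_P121368 (chr1:133611664-133611723, plus strand): gctctgggatgagtagcgcccactactgtt
Rab2b, A_55_P1997977 (chr14:52881499-52881558, minus strand): ttctttcacagcactgaggtctcaccaaat
Rab33b, A_55_P1968235 (chr3:51299763-51299822, plus strand): ctcccataacgtacAATAAAtcatctttgc
Rab40c, A_52_P355075 (chr17:26019159-26019218, minus strand): atggtatagactttgaggacctggattggc
Rab4a, bright probe A_55_P2015715 (chr8:126359128-126359187, plus strand): tggaAATAAAgtggaacggagtttctcacg
Rab4a, dim probe A_55_P2148641 (chr8:126356738-126356797, plus strand): gcaaggaaaatacttaacaaaattgaatca
Rab8b, bright probe A_66_P129800 (chr9:66691564-66691623, minus strand): agccagttcattaactgtactgatactgat
Rab8b, dim probe A_52_P408133 (chr9:66694039-66694098, minus strand): atagctggttatacagacaattctgcctca
Rab6a, bright probe A_55_P2748189 (chr7:107789561-107789620, plus strand): ttggattatggatctgaatagagaaatact
Rab6a, dim probe A_55_P2139107 (chr7:107790063-107790122, plus strand): gtgataaagtgcattggaAATAAAttatat
Rab22a, probe A_52_P582767 (chr2:173530063-173530122, plus strand): ataagtttctaaggAATAAAtggggtgtac
Rab22a, probe A_55_P2740273 (chr2:173528377-173528436, plus strand): atgtcgtggcacatgagcagcaggaaaaca
Rab22a, probe A_55_P2049549 (chr2:173527475-173527534, plus strand): tagtcctgtgcccagtctcctgtgtgccca

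Of all 92 Rab probes, 81 carry a RefSeq accession in the table and 12 span more genome than their own length, as a probe across an exon junction does. No run longer than 14 bases was shared between probes of different Rab genes. Each of the 92 probes was well above background on all 6 arrays, and 18 single values carried a quality mark other than present. Whether a probe lies in a coding or an untranslated exon was not determined.

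**Figure D1:**
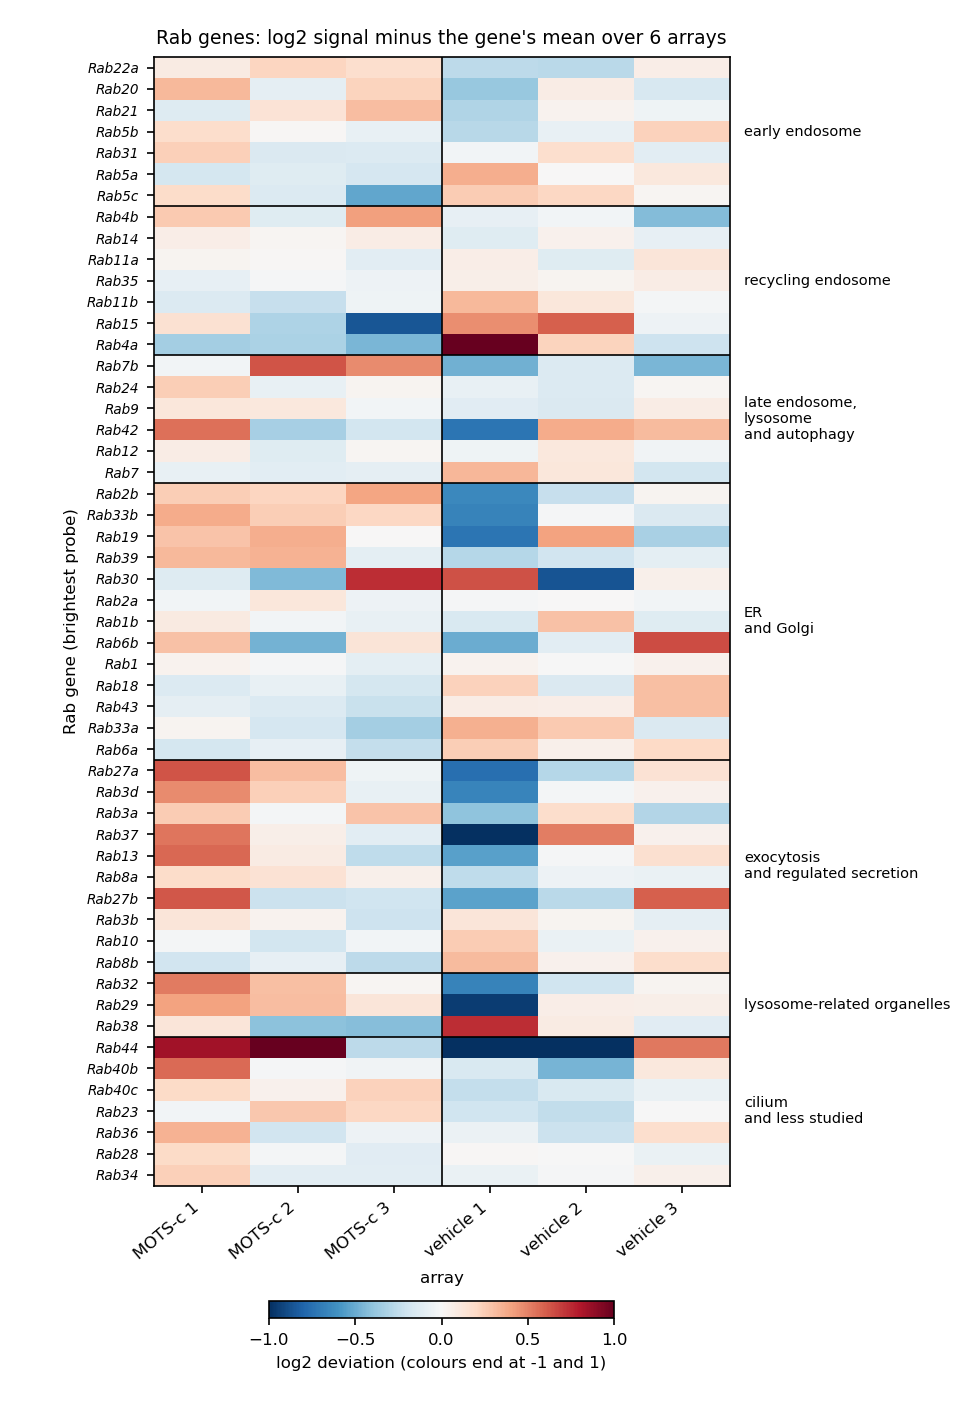
Log2 signal of the 53 Rab genes (rows, brightest probe, grouped by the membrane they are known for) on each array (columns, MOTS-c left of vehicle), as the deviation from the gene's own mean over 6 arrays. Red is higher and blue is lower; vehicle 1 was the lowest array for 22 of the 53 genes and MOTS-c 1 the highest for 18.

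The arrays were hybridised on 2 slides. Slide 1 held vehicle 1 and vehicle 2, and slide 2 held vehicle 3 with the 3 MOTS-c arrays, so only vehicle 3 shares a slide with the treated samples. A difference within slide 2, MOTS-c minus vehicle 3, is therefore given beside many of the results. It rests on vehicle 3 alone, an array that differed in cell content too. Pancreatic acinar markers had a mean deviation of 4.57 on vehicle 3, against -2.65 to 0.20 on the MOTS-c arrays. Neutrophil markers stood at 0.62 on vehicle 3, against -0.70 and -1.50 on vehicle 1 and vehicle 2. Vehicle 1 also stood apart, since it was the lowest array for 22 Rab genes and the highest for 11, while over all genes it was lowest for 35.1% and highest for 26.6%. The spread within a group, as the median SD over Rab genes, was 0.16 for MOTS-c and 0.20 for vehicle, against 0.15 and 0.25 over all genes.

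The measured markers of spleen cells were above background on every array, as every probe of the deposited table was. The marker lists of several cell types differed between the groups. The lists were chosen with earlier results of these data known, so their counts are a description and not independent evidence. All 12 measured erythroid markers were lower with MOTS-c, their mean deviation ranging over -0.63 to -0.42 on MOTS-c arrays and 0.17 to 0.79 on vehicle arrays. All 12 T cell markers were higher, at 0.51 to 0.62 on MOTS-c arrays and -1.53 to 0.04 on vehicle arrays. The 11 B cell markers were higher too, at 0.32 to 0.51 on MOTS-c arrays and -1.40 to 0.27 on vehicle arrays, with the lowest value of both lymphocyte lists on vehicle 1. All 12 cell cycle genes were lower with MOTS-c and did not overlap, at -0.63 to -0.24 on MOTS-c arrays and 0.22 to 0.77 on vehicle arrays, in the same direction as the lower Rabs and effectors named below. The 12 neutrophil markers and the 11 platelet markers were higher in mean but overlapped between the groups on every gene. Of the pancreatic acinar markers, 12 of 14 were measured, and their mean deviation ran over -2.65 to 0.20 on MOTS-c arrays and -1.66 to 4.57 on vehicle arrays, highest on vehicle 3. In whole spleen, fewer cells of a type and less RNA per cell cannot be told apart, and the part of these markers in the Rab results was not tested.

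Among the Rabs of early endosomes, the vesicles that first receive endocytosed cargo, 4 of 7 genes had a higher mean with MOTS-c and 3 a lower one. At an unadjusted p under 0.05 limma called 0 of them, where 13.3% of all genes were called higher and 13% lower. Rab5a, a driver of early endosome fusion, read 11.68, 11.74 and 11.69 on the MOTS-c arrays, against 12.22, 11.86 and 11.96 on the vehicle arrays. Every MOTS-c value lay below every vehicle value, at a difference of -0.31 ± 0.14 (log2, SE) and an adjusted p of 0.220 in limma's test, and the difference was -0.21 without vehicle 1 and -0.26 within slide 2. Its paralogue Rab5c differed by -0.32 with overlapping groups, and Rab5b, the other paralogue, by 0.074. For Rab5b the 95% interval of the difference was -0.33 to 0.47, which leaves room for a change of either sign.

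Rab22a, which takes part in sorting at early endosomes, was read by 3 probes that differed in direction. The probe with the signal in capitals gave 11.60, 11.73 and 11.69 on MOTS-c arrays, against 11.26, 11.25 and 11.59 on vehicle arrays, a difference of 0.31. The dim probe A_55_P2740273 gave a difference of 0.36, also with no overlap, while A_55_P2049549 gave 9.73, 9.78 and 9.66 on MOTS-c arrays, against 10.45, 10.13 and 9.81 on vehicle arrays, a difference of -0.41. Within each array the log2 ratio of the first probe to the last was 1.87, 1.96 and 2.03 with MOTS-c, against 0.81, 1.12 and 1.78 with vehicle. The probes thus moved apart in each treated sample, most against vehicle 1 and least against vehicle 3, and within slide 2 their differences were 0.09, 0.14 and -0.08. In limma's test the adjusted p of the 3 probes was 0.227, 0.223 and 0.214 in the same order.

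Of the other early endosome Rabs, Rab20, known from the maturation of phagosomes, and Rab21 had mean differences of 0.31 and 0.21, and Rab31 one of -0.026, each with groups that overlapped.

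The recycling endosome returns internalised receptors to the surface, and 5 of its 7 Rab genes had a lower mean with MOTS-c. Rab4a, a Rab of fast receptor recycling, read 10.14, 10.16 and 10.02 on the MOTS-c arrays, against 11.58, 10.70 and 10.27 on the vehicle arrays. The MOTS-c values were close together and below all vehicle values, and the vehicle arrays were far apart, with vehicle 1 the highest. The difference was -0.74 ± 0.31 (1.67-fold), with an unadjusted p of 0.0490 and an adjusted p of 0.192 in limma's test. Without vehicle 1 it was -0.38, and within slide 2 it was -0.16, so the size rested largely on that library. The second Rab4a probe gave 7.20, 7.32 and 7.11 with MOTS-c, against 8.82, 7.76 and 7.51 with vehicle, in the same order of arrays. Erythroid markers, all lower with MOTS-c as given above, were highest on vehicle 1 too, at 0.79, but stood at 0.60 on vehicle 3, where Rab4a was near its MOTS-c level.

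Rab4b, the paralogue of Rab4a, had the opposite sign, with 10.42, 10.03 and 10.57 on MOTS-c arrays, against 10.07, 10.13 and 9.73 on vehicle arrays. The groups overlapped, and the difference was 0.36 ± 0.19 over all arrays and 0.61 within slide 2. Rab11b, a Rab of the slow recycling route, read 12.65, 12.55 and 12.74 with MOTS-c, against 13.11, 12.90 and 12.77 with vehicle, which do not overlap. Its difference was -0.28 ± 0.15 (adjusted p 0.265 in limma's test), and it was -0.18 without vehicle 1 and -0.11 within slide 2. Its 3 probes ranged over -0.28 to -0.25. Its paralogue Rab11a differed by -0.046, with a 95% interval of -0.36 to 0.27. Rab35, which acts in recycling and in the last step of cell division, did not overlap either on its bright probe, though the difference was only -0.10 (-0.12 within slide 2). Its second probe overlapped and differed by 0.051 over all arrays, and by -0.19 within slide 2. Rab15 had the mean difference -0.67 with overlap, which was -0.41 without MOTS-c 3 and -0.29 within slide 2, and Rab14, read by 6 probes, the most of any member, ranged over -0.16 to 0.23.

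On late endosomes, lysosomes and the route of autophagy, Rab7b was the member with the lowest p of the family. Rab7b is known from macrophages, where it dampens signalling by Toll-like receptors in late endosomes, and it also works in transport from endosomes to the Golgi. Its bright probe read 12.34, 12.99 and 12.84 on the MOTS-c arrays, against 11.89, 12.23 and 11.91 on the vehicle arrays. All MOTS-c values lay above all vehicle values, though MOTS-c 1 was only a little above vehicle 2. The difference was 0.72 ± 0.21 (1.64-fold), with a 95% interval of 0.23 to 1.20, an unadjusted p of 0.0102 and an adjusted p of 0.112 in limma's test. The dim probe read 5.89, 6.43 and 6.42 with MOTS-c, against 5.27, 5.35 and 5.32 with vehicle, a difference of 0.93 ± 0.18 (adjusted p 0.082). Within slide 2 the 2 probes differed by 0.82 and 0.92, and without vehicle 1 by 0.65 and 0.91, so Rab7b kept its size against vehicle 3 alone. The 10 measured macrophage markers had mean deviations of -0.12 to 0.23 on MOTS-c arrays and -0.19 to 0.07 on vehicle arrays, and were lowest within the MOTS-c group on MOTS-c 2, where Rab7b was highest.

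Rab7, the general Rab of late endosome and lysosome fusion, did not share this. Its bright probe read 11.40, 11.37 and 11.39 on MOTS-c arrays, against 11.81, 11.59 and 11.29 on vehicle arrays, a difference of -0.18 with a 95% interval of -0.56 to 0.20. Within slide 2 the difference of this probe was 0.094. The second Rab7 probe differed by 0.091 with overlap, and by 0.29 within slide 2, so the sign of Rab7 over all arrays depended on the probe. The remaining members of this group were close to 0, at 0.13 for Rab24, an autophagy Rab, 0.12 for Rab9, which returns receptors to the Golgi, 0.027 for Rab42 and -0.018 for Rab12.

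**Figure D2:**
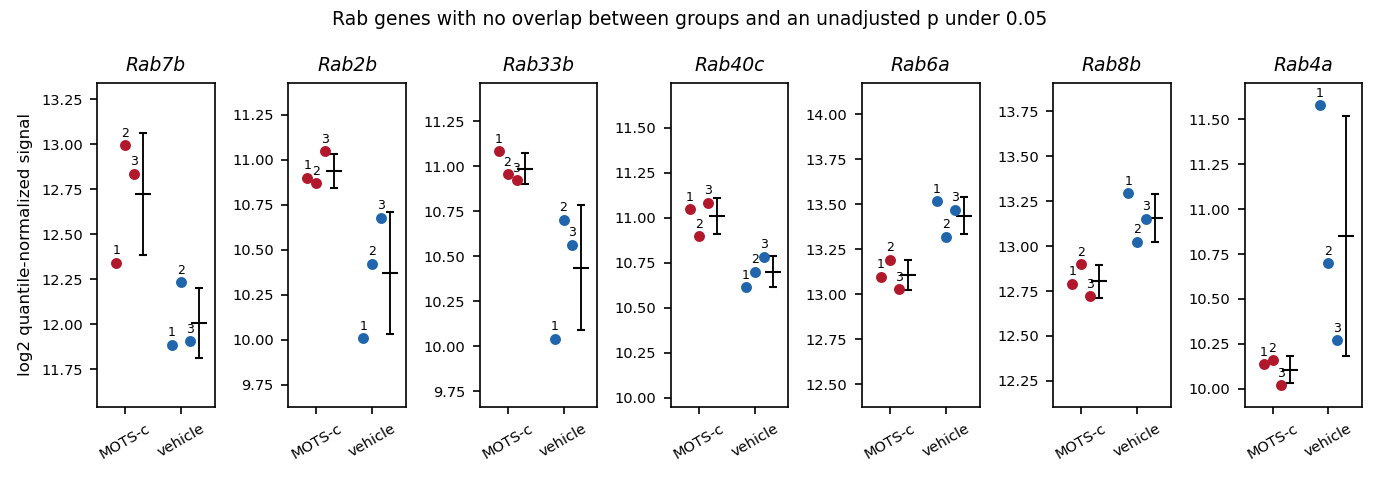
Log2 quantile-normalized signal of the 7 Rab genes whose groups did not overlap at an unadjusted p under 0.05 (limma), by brightest probe. Points are arrays with their replicate number, MOTS-c in red left of vehicle in blue, bars are the mean ± SD of 3 arrays, and each vertical axis spans the same range. The MOTS-c values of Rab7b (12.34 to 12.99) lie above all its vehicle values, and the vehicle values of Rab4a run over 10.27 to 11.58.

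The 13 Rabs of the endoplasmic reticulum and Golgi split into 6 with a higher and 7 with a lower mean, with a median difference of -0.011. Rab2b, a Golgi Rab, read 10.90, 10.87 and 11.05 on the MOTS-c arrays, against 10.01, 10.42 and 10.68 on the vehicle arrays. The vehicle arrays were spread out, vehicle 1 lowest, and none reached the MOTS-c values. The difference was 0.57 ± 0.19 (1.48-fold, unadjusted p 0.0206, adjusted p 0.138, limma), and it was 0.39 without vehicle 1 and 0.26 within slide 2. The 3 Rab2b probes ranged over 0.25 to 0.57, while its paralogue Rab2a differed by 0.024, with a 95% interval of -0.27 to 0.32.

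Rab33b, a Golgi Rab that binds the autophagy protein Atg16l1, read 11.08, 10.95 and 10.92 on the MOTS-c arrays, against 10.04, 10.70 and 10.56 on the vehicle arrays. No values overlapped, and vehicle 1 lay far below the rest. The difference was 0.55 ± 0.19 (1.46-fold, unadjusted p 0.0250, adjusted p 0.147, limma), at 0.35 without vehicle 1 and 0.42 within slide 2. Rab39 (0.38, without overlap, and 0.29 within slide 2) and Rab19 (0.44, with overlap) also had a higher mean.

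Rab6a, which drives traffic at and from the Golgi, read 13.10, 13.19 and 13.03 on the MOTS-c arrays, against 13.52, 13.32 and 13.47 on the vehicle arrays. The groups did not overlap, and no vehicle array stood far from the others. The difference was -0.33 ± 0.13 (1.26-fold, unadjusted p 0.0390, adjusted p 0.174, limma), and it was -0.29 without vehicle 1 and -0.36 within slide 2. Its dim probe, which holds the polyadenylation signal, differed by -0.65 over all arrays and by -0.20 within slide 2.

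Rab43 works between the endoplasmic reticulum and the Golgi and takes part in cross-presentation by mouse dendritic cells. Its bright probe read 14.94, 14.89 and 14.81 with MOTS-c, against 15.11, 15.10 and 15.33 with vehicle, and its dim probe 9.29, 9.32 and 9.29, against 10.16, 9.70 and 9.75. Both probes were lower on every MOTS-c array than on every vehicle array, with differences of -0.30 and -0.57 (adjusted p 0.212 and 0.110, limma). Within slide 2 each differed by -0.45. The 8 measured dendritic cell markers all had a higher mean with MOTS-c, at 0.29 to 0.39 on MOTS-c arrays and -0.91 to 0.06 on vehicle arrays.

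Rab1 and Rab1b, which carry cargo out of the endoplasmic reticulum, differed by -0.051 and -0.011, with a 95% interval for Rab1 of -0.34 to 0.24. Rab33a had the mean difference -0.32 and Rab18, a Rab of lipid droplets, -0.26, each with overlap. Rab30 and Rab6b changed from array to array more than between groups: Rab30 read 10.94, 10.62 and 11.80 with MOTS-c, against 11.70, 10.20 and 11.11 with vehicle, and Rab6b was highest on vehicle 3, at 8.70.

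Of the 10 Rabs of exocytosis and regulated secretion, 7 had a higher mean with MOTS-c, and the median difference was 0.26. That median rested on single arrays, at 0.035 without vehicle 1 and 0.093 without MOTS-c 1, and it was 0.096 within slide 2. Rab8b, which moves vesicles to the plasma membrane, went the other way, at 12.79, 12.90 and 12.72 on the MOTS-c arrays, against 13.29, 13.02 and 13.15 on the vehicle arrays. The values did not overlap, and MOTS-c 2 lay just under vehicle 2. The difference was -0.35 ± 0.14 (1.28-fold, unadjusted p 0.0358, adjusted p 0.168, limma), and it was -0.28 without vehicle 1 and -0.35 within slide 2. The dim Rab8b probe differed by -0.49, and by -0.61 within slide 2. Rab8a, its close paralogue, read 10.79, 10.75 and 10.66 with MOTS-c, against 10.35, 10.56 and 10.55 with vehicle, a difference of 0.25 ± 0.13 without overlap (adjusted p 0.267, limma), and of 0.19 within slide 2.

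Rab27a is needed for the release of cytotoxic granules by lymphocytes and is lost in human Griscelli syndrome. It read 8.81, 8.49 and 8.14 on the MOTS-c arrays, against 7.43, 7.90 and 8.33 on the vehicle arrays, so MOTS-c 3 lay below vehicle 3. The difference was 0.60 ± 0.27 (adjusted p 0.213, limma), and it was 0.37 without vehicle 1 and 0.15 within slide 2. The 9 measured markers of NK and cytotoxic cells had mean deviations of 0.25 to 0.67 on MOTS-c arrays and -1.48 to 0.08 on vehicle arrays. They were lowest on vehicle 1, as Rab27a and the T cell and B cell lists were. On MOTS-c 3 these markers stood at 0.25, above vehicle 3 at -0.06, where Rab27a had the other order.

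Rab27b, a granule Rab of platelets and mast cells, read 10.71, 9.87 and 9.88 with MOTS-c, against 9.55, 9.82 and 10.68 with vehicle. Only MOTS-c 1 and vehicle 3 were high, and the difference was 0.14 over all arrays and -0.53 within slide 2. The 11 platelet markers had mean deviations of 0.57, -0.08 and 0.01 on the MOTS-c arrays, against -0.71, -0.21 and 0.42 on the vehicle arrays, and were likewise highest on MOTS-c 1 and vehicle 3. Among the rest, Rab3d and Rab3a, Rabs of secretory granules and synaptic vesicles, had mean differences of 0.42 and 0.35, Rab37 one of 0.33 and Rab13 one of 0.26, each with overlap. For Rab37 the difference was -0.11 without vehicle 1, where it read 9.15. Rab10, a Rab of glucose transporter exocytosis, differed by -0.15 and Rab3b by -0.038.

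Lysosome-related organelles, such as melanosomes, are built with the help of Rab32, Rab38 and Rab29, which is also a partner of the kinase Lrrk2. Rab32 read 11.30, 11.08 and 10.80 with MOTS-c, against 10.11, 10.59 and 10.81 with vehicle, so that MOTS-c 3 met vehicle 3. Its difference was 0.56 ± 0.22 (unadjusted p 0.0388, adjusted p 0.174, limma), and it was 0.36 without vehicle 1 and 0.25 within slide 2. Rab29 read 12.23, 12.14 and 11.95 with MOTS-c, against 10.89, 11.90 and 11.89 with vehicle, without overlap but with most of the difference of 0.55 from vehicle 1. Without that array, and within slide 2, it was 0.22. Rab38, at -0.47 with overlap, had the opposite sign, and was at -0.22 without vehicle 1 and -0.13 within slide 2.

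The cilium Rabs and less studied members all had a higher mean with MOTS-c over the 6 arrays, 7 of 7, with a median of 0.30. Without MOTS-c 1 it was 4 of 7 with a median of 0.15, without vehicle 2 it was 6 of 7 with a median of 0.19, and within slide 2 it was 5 of 7 with a median of 0.084. Rab40c, which belongs to a ubiquitin ligase through its SOCS box, read 11.05, 10.90 and 11.08 with MOTS-c, against 10.61, 10.70 and 10.78 with vehicle. The groups did not overlap, and the difference was 0.31 ± 0.13 (1.24-fold, unadjusted p 0.0487, adjusted p 0.191, limma), at 0.22 within slide 2. Rab23, a negative regulator of Hedgehog signalling in mouse embryos, was read by 2 dim probes. One gave 5.57, 5.58 and 5.70 with MOTS-c, against 5.06, 5.23 and 4.97 with vehicle, a difference of 0.53 without overlap (adjusted p 0.096, limma), and 0.64 within slide 2. The other differed by 0.30 with overlap. Rab40b had the mean difference 0.34 with overlap, and Rab36, Rab28 and Rab34 lay between 0.017 and 0.065.

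Rab44, a large Rab with an EF-hand that is known from mast cell granules, had the largest mean difference of the family and overlapping groups. It read 10.70, 11.30 and 9.60 on the MOTS-c arrays, against 8.75, 8.45 and 10.39 on the vehicle arrays. MOTS-c 3 was lower than vehicle 3, and the difference of 1.34 ± 0.60 (adjusted p 0.211, limma) compares with 0.14 within slide 2. The 12 neutrophil markers had mean deviations of 1.00, 1.20 and -0.63 on the MOTS-c arrays, against -0.70, -1.50 and 0.62 on the vehicle arrays, and stood in the same order of arrays as Rab44. The 8 mast cell and basophil markers had mean deviations of 0.15, 0.44 and -0.37 on the MOTS-c arrays, against -0.24, -0.58 and 0.60 on the vehicle arrays, so they too were high on MOTS-c 1, MOTS-c 2 and vehicle 3.

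**Figure D3:**
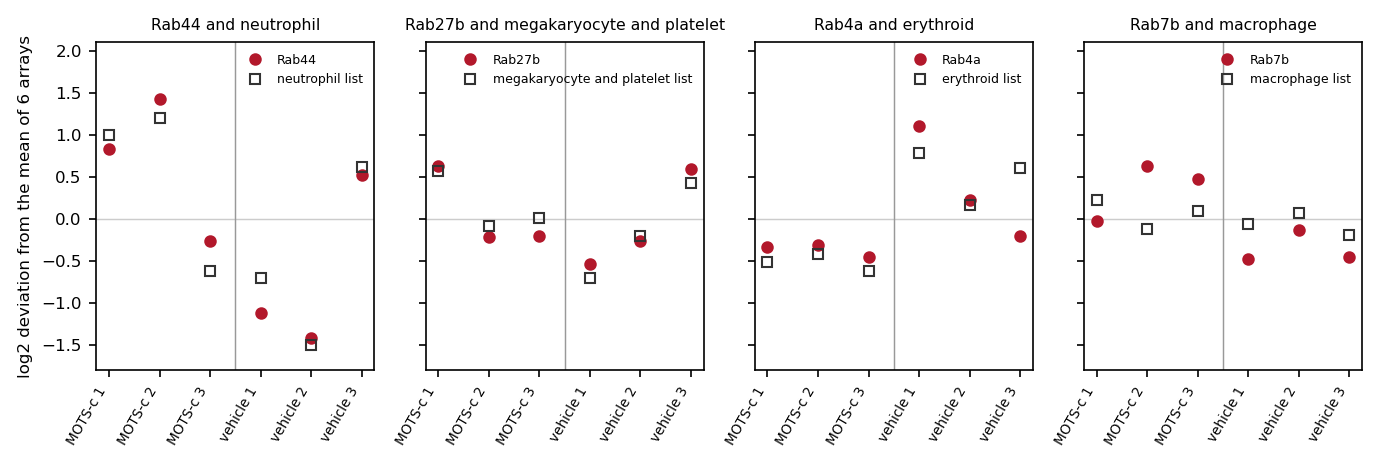
Log2 deviation from the mean of 6 arrays for 4 Rab genes (filled circles) and the mean of a marker list (open squares), per array, with MOTS-c left of the vertical line and vehicle right of it. Rab44 follows the neutrophil list and Rab27b the platelet list from array to array, and Rab4a departs from the erythroid list on vehicle 3. Rab7b departs from the macrophage list most on MOTS-c 2, then on vehicle 1 and MOTS-c 3.

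Some paralogues that share a number differed in opposite directions. The 53 genes hold 16 such pairs, and in 8 of them the mean differences of the pair had opposite signs. The pairs were set out after the values were seen, so they are described without a test. Taken as a log2 ratio within each array, Rab4a over Rab4b was lower on all MOTS-c arrays than on all vehicle arrays, with the means differing by -1.11. The ratio of Rab7 to Rab7b differed by -0.89, that of Rab33a to Rab33b by -0.87, and that of Rab8a to Rab8b by 0.60, again with no overlap in any of these 3 pairs. Each gene is its brightest probe here, and the second Rab7 probe (0.091) had the same sign as Rab7b. Other pairs kept together, as did Rab40b and Rab40c (0.033), Rab5a and Rab5c (0.011) and Rab1 and Rab1b (-0.040). With 32 of the 53 Rab genes higher in mean, pairs of opposite sign are common in any case, and no paralogue passed the adjusted threshold, so nothing is read from their number.

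**Figure D4:**
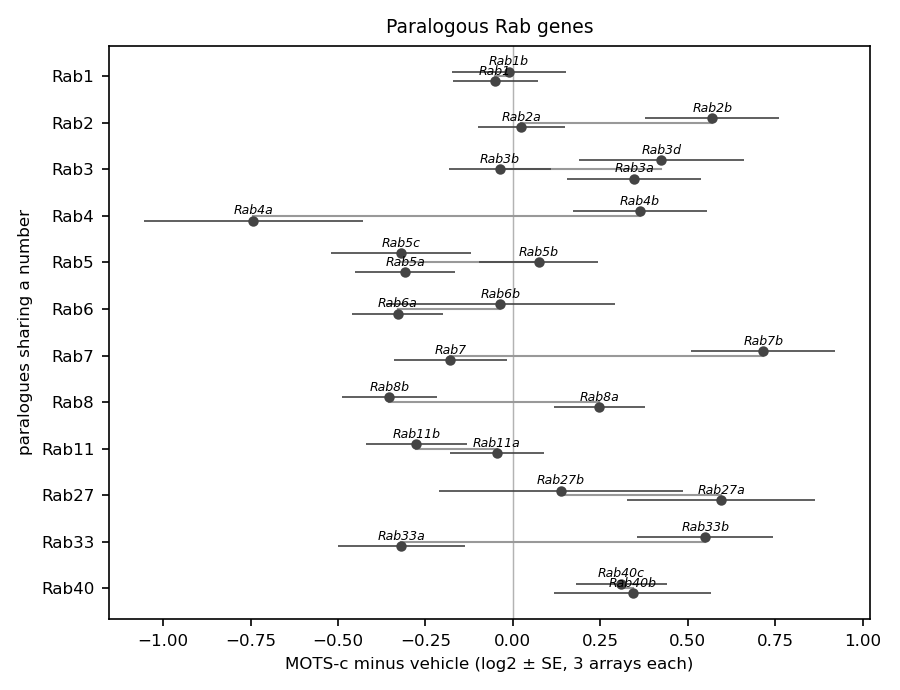
MOTS-c minus vehicle difference (log2, point ± SE of limma, 3 arrays each group) for Rab genes that share a number, 1 row per number, with a grey line joining the paralogues. By brightest probe, Rab4a and Rab4b, Rab7 and Rab7b, Rab8b and Rab8a, and Rab33a and Rab33b lie on opposite sides of 0. The second Rab7 probe, not drawn, differed by 0.091.

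Agreement between probes of a gene was partial. Of 27 Rab genes with several probes, 19 had the same sign in all of them and 8 had both signs. The 8 were Rab1, Rab5b, Rab7, Rab12, Rab14, Rab22a, Rab28 and Rab35. Only for Rab22a were all probes at 0.2 or more in size and of both signs. Rab28, a Rab of the cilium, was near 0 on its bright probe (0.039), while its exon-junction probe gave 8.17, 8.06 and 7.92 with MOTS-c, against 8.88, 8.32 and 8.18 with vehicle, a difference of -0.41, which was -0.20 without vehicle 1 and -0.13 within slide 2. On Rab12, 3 probes lay within -0.032 and 0.054 and the fourth differed by 0.37.

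**Figure D5:**
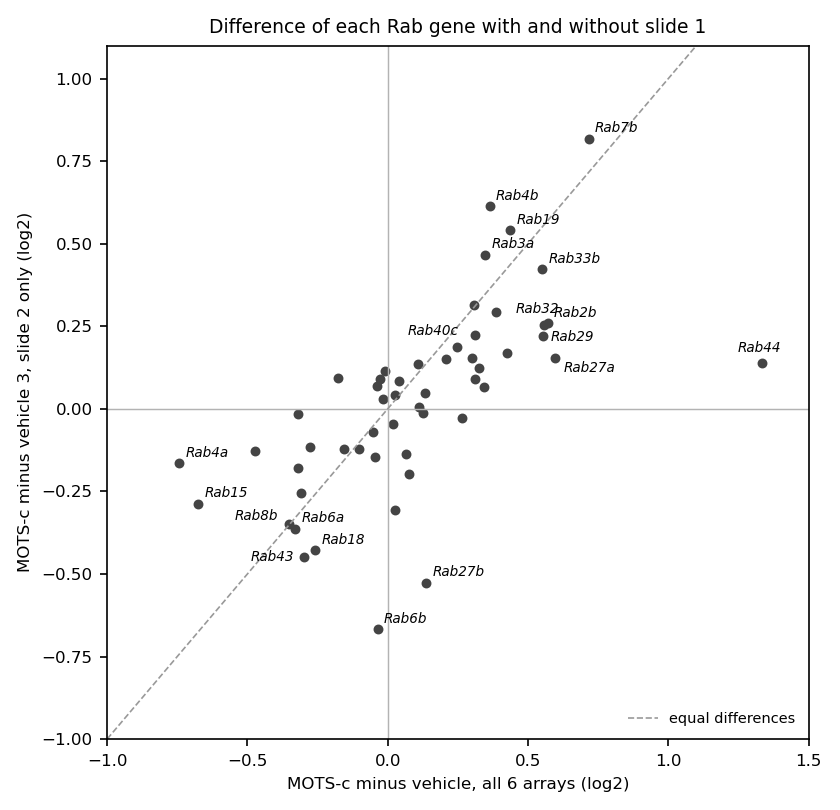
MOTS-c minus vehicle difference (log2) of the 53 Rab genes over all 6 arrays (horizontal) against the difference from vehicle 3 within slide 2 (vertical), with the line of equality dashed. The axes share the MOTS-c arrays and vehicle 3, and Rab7b, Rab6a and Rab8b lie near the line while Rab44, Rab27a and Rab4a lie nearer to 0 on the vertical axis.

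Within slide 2, 30 of the 53 Rab genes had a higher mean with MOTS-c and the median difference was 0.047, beside 32 genes and 0.074 over all arrays. The sizes of Rab7b, Rab8b and Rab6a changed little, while those of Rab2b, Rab4a, Rab44, Rab27a, Rab32 and Rab29 were over 1.5 times smaller.

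The proteins that load, unload and read the Rabs were described from lists set by class, of which 130 of 142 genes were measured. In mean, 85 were higher with MOTS-c and 45 lower, with a median of 0.17. Vehicle 1 had the lowest mean deviation of effectors, at -0.22, beside -0.087 and -0.018 on vehicle 2 and vehicle 3. It was lowest too for exchange factors (-0.19, beside -0.012 and -0.015) and GTPase-activating proteins (-0.074, beside -0.040 and 0.0043). The same held for inhibitor and escort genes (-0.33, beside -0.047 and -0.040), while the transferase list was highest there (0.18). The part of vehicle 1 in these counts was not tested. At an unadjusted p under 0.05, limma called 38 higher and 14 lower, where 13.3% and 13% of all genes were called, and 0 had an adjusted p under 0.05. Without vehicle 2 that last count was 6, where 2.44% of all probes passed, and with a variance prior that follows the level it was 5, where 2.28% passed. The groups did not overlap for 45 higher and 20 lower, where 19.4% and 16.3% of all genes did not.

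Among the exchange factors, 44 of 45 were measured, and limma called 12 higher and 6 lower at an unadjusted p under 0.05. These were 27.3% and 13.6% of the class, beside 13.3% and 13% of all genes. Dennd2c read 10.82, 10.55 and 10.29 with MOTS-c, against 11.89, 11.30 and 11.69 with vehicle, a difference of -1.07 (adjusted p 0.082). Rab3il1, an exchange factor that acts on Rab8 and binds Rab3, differed by -0.90 (adjusted p 0.084), and Mon1a, a subunit of the exchange factor for Rab7, by 0.76 (adjusted p 0.092). Within slide 2 the 3 genes differed by -1.13, -0.99 and 0.44. The erythroid list had a mean deviation of 0.60 on vehicle 3, against -0.63 to -0.42 on MOTS-c arrays. The cell cycle list stood at 0.49 on vehicle 3, against -0.63 to -0.24. Any part of these lists in the values of the 3 genes was not tested.

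The GTPase-activating proteins had 38 of 39 genes measured, with 11 called higher and 4 lower. That was 28.9% and 10.5% of them, beside 13.3% and 13% of all genes. Tbc1d2b read 9.15, 8.91 and 8.88 with MOTS-c, against 12.18, 10.73 and 10.06 with vehicle, with no overlap and with vehicle 1 far above the rest. Its difference was -2.01 over all arrays, -1.41 without vehicle 1 and -1.08 within slide 2. Usp6nl, which acts on Rab5, differed by -0.56 and Sgsm2 by 0.64, with adjusted p of 0.090 and 0.083 in limma's test.

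Effectors were measured for 41 of 51 genes, with 14 called higher and 3 lower. That was 34.1% and 7.3% of them, beside 13.3% and 13% of all genes. The 3 genes with the smallest p were all lower: Micall2, an effector of Rab8 and Rab13, by -1.35, Optn, a Rab8 effector and autophagy receptor, by -1.01, and Osbpl1a, a Rab7 effector, by -0.91, each at an adjusted p of 0.082 in limma's test. Optn read 10.26, 10.32 and 10.24 with MOTS-c, against 11.63, 10.87 and 11.36 with vehicle, and differed by -1.09 within slide 2. The smallest p values of this class thus went against the direction of most of its members.

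Other genes put Rabs on membranes and take them off. All 5 GDP dissociation inhibitor and escort genes had a higher mean with MOTS-c. At an unadjusted p under 0.05, where 13.3% of all genes were called higher, limma called 1 of the 5. That gene, Gdi2, read 14.87, 15.00 and 15.06 with MOTS-c, against 14.40, 14.65 and 14.77 with vehicle, a difference of 0.37 (adjusted p 0.175). Rabac1, a Rab acceptor of the Golgi, differed by 0.37 without overlap. The subunits of the geranylgeranyl transferase of Rabs went opposite ways in mean, with Rabggtb at -0.41 and Rabggta at 0.39. Ptar1, listed with them but not a subunit of that enzyme, was at -0.34. All 3 genes overlapped between the groups.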

How the data were processed

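Spleen RNA of 6 female NOD mouse samples (3 MOTS-c, 3 vehicle) was hybridised to 1-colour Agilent arrays. Processed signal intensities came, per the file headers, from Agilent Feature Extraction 11.0.1.1, with positions on mm9. The authors' deposited table holds log2 values that are quantile normalized between arrays (sorted columns equal within 0.000644) for 31692 probes, all well above background on all 6 arrays. In the same table the authors deposited a signed fold as a score and a p-value, which equals Welch's test within 0.0001 for 99.9968% of probes, with its adjustment.

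Rab members and lists were chosen with earlier results of these data known. The deposited log2 values were fitted with limma 3.58.1 (R 4.3.3, lmFit, eBayes, two-sided, Benjamini-Hochberg over all probes), after a check on simulated data. There, 100 probes had a true log2 difference of 0.5 and 100 one of 1, and the other probes were unchanged. At an adjusted p under 0.05 the fit recovered 0 and 0 of them, and at an unadjusted p under 0.05 it recovered 67 and 87. Small p values were more frequent in the data than in the simulation, so the adjusted recovery need not hold for the data. Groups came from the titles. A gene was its brightest probe. Array number limits precision. Genes given in full did not overlap between groups at an unadjusted p under 0.05; a panel, genes with discordant probes and the 3 smallest p per regulator class follow. One gene of these classes is not reported here. Rab1 of the table is Rab1a in the reference table. Alternatives covered scaling, background (normexp on the median signal, since the mean signal is not used here), filters, slide, variance prior, replicate number and each array left out.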

Additional observations from a re-analysis of the deposited data

How the results depend on the processing

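Over the 9 alternatives that give other differences (slide counted once), 219 of the differences of 26 named Rab genes had the same sign as reported and 15, of 7 genes, the other sign. For a gene whose groups do not overlap, neither leaving out 1 array nor comparing within slide 2 can change the sign. Part of the 219 was therefore fixed in advance, and the count does not measure how stable these genes are. No gene was past the adjusted threshold. The Rab probes past the adjusted threshold stayed at 0 throughout, with the smallest adjusted p at 0.057 when the variance prior followed the level. The 7 Rab probes lower at an unadjusted p under 0.05 became 11 with 75th percentile scaling, 2 with slide as a block and 4 by the authors' deposited p-value. Over all probes the lower count went from 4329 to 4594, 2277 and 2504 in the same order. The 8 higher ones became 4 with slide as a block, where the higher count over all probes went from 3869 to 837. Leaving out 1 array gave 5 (without MOTS-c 1) to 13 (without vehicle 3) higher, 1 (without MOTS-c 3) to 8 lower, and a Rab gene median of 0.0061 (without MOTS-c 1) to 0.18 (without MOTS-c 2). Over all probes, leaving out 1 array gave 1905 to 4672 higher and 2885 to 5107 lower. Regulators and effectors past the threshold were 5 with the trended prior and 0 to 6 with 1 array left out, the 6 without vehicle 2, where 772 probes of the table passed, against 721 with the trended prior. Sign changed for Rab5b (-0.021 in both 75th percentile settings, -0.20 by slide, -0.044 to 0.21 left out), Rab14 (-0.093 in both), Rab11a (0.032 with normexp, -0.12 to 0.0039 left out), Rab1b (0.12 by slide, -0.090 to 0.13 left out), Rab7 (0.094 by slide), Rab27b (-0.53 by slide, -0.14 to 0.47 left out) and Rab37 (-0.11 to 0.66 left out). The cause was not tested. The replicate block gave 5 higher Rab probes, where 3024 of all probes were higher, and moved no other count by over 1.5 times. Same-numbered arrays did not deviate together (correlations of -0.18, -0.0024 and -0.087), so the numbers do not pair the samples. Slide 1 holds vehicle arrays only, so slide and group are separable through vehicle 3 alone.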

Other observations

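On the arrays, 14 further probes of 11 Rab genes lie outside the deposited table, among them the probes of 6 genes with no probe in it: Rab17, Rab25, Rab26, Rab39b, Rab3c and Rab9b. Rab26, a Rab of secretory granules, was well above background on 3 of 3 MOTS-c arrays and on 2 of 3 vehicle arrays. A probe of Rab42 showed the same counts, and a second probe of Rab3d was above background on 3 of 3 MOTS-c arrays and on 1 of 3 vehicle arrays. In all 3 cases vehicle 1 was among the arrays below. No array measured Rab39b, Rab3c or Rab9b well above background.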
